A study of Mus musculus with 12 samples.

Results

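H2-Ea, H2-Q2 and Hebp1 were examined across 12 RNA-seq libraries of mouse splenic cDC2, a class of conventional dendritic cells. They are 3 of the 55322 genes in the deposited expression table. The members were picked from the measured values themselves: all 3 were high in every library of a fate-mapping reporter line and near 0 in every library of cells grown from transferred progenitors. The contrast between these systems is therefore given below as a description of the chosen genes, without a test.

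The libraries fall into 4 groups of 3. L.cDC2 were the tdTomato+ and M.cDC2 the tdTomato- splenic cells of a reporter line that carries Il7r-Cre;Rosa26-lsl-tdTomato, in which Cre is driven from Il7r, a gene of lymphoid progenitors, and leaves a lasting tdTomato label. CLP.cDC2 arose from transferred common lymphoid progenitors and CDP.cDC2 from transferred common dendritic cell progenitors. These donor cells were wild-type and CD45.2+, and were put into the marrow of B6.SJL hosts (CD45.1+), which keep their own haematopoietic cells. All animals had received 5 mg/kg lipopolysaccharide (LPS) into the peritoneum and were sampled on day 4. The growth text names wild-type C57BL/6J mice of 7 to 8 weeks for all 12 samples, the reporter ones included, and gives no other strain background for the reporter line. Genotype, transfer and host differ together between the systems, so their parts in any difference between reporter-line and transferred cells cannot be told apart. The labels do not say whether the tdTomato+ and tdTomato- cells share animals or whether replicates are separate animals. P-values here therefore speak only of the spread among the libraries at hand, which may be technical.

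H2-Ea encodes the alpha chain of the MHC class II molecule I-E, which pairs with the beta chain from H2-Eb1 and presents peptides to CD4 T cells. Mouse strains differ in it: laboratory strains of the H2-b haplotype, C57BL/6 among them, are known for a deletion at the start of the gene and lack surface I-E. H2-Q2 belongs to the Qa region of the MHC, a run of class I-like genes whose number varies between haplotypes. Hebp1 encodes a small cytosolic haem-binding protein, and a peptide from its amino terminus is known as a ligand of formyl peptide receptors.

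In the deposited annotation H2-Ea (ENSMUSG00000036322) is a polymorphic pseudogene on the minus strand of chromosome 17, from 34560933 to 34563619, with 1036 exonic bases. H2-Q2 (ENSMUSG00000091705) is protein-coding, on the plus strand of chromosome 17, from 35561218 to 35565738, with 2181 exonic bases. It lies 1.0 Mb from H2-Ea, with distances taken here and below between the genes' lower coordinates. Hebp1 (ENSMUSG00000042770) is protein-coding, on the minus strand of chromosome 6, from 135114520 to 135175020, with 3711 exonic bases. No other listed gene overlaps H2-Ea or H2-Q2, while 4 overlap the span of Hebp1. The sources used here do not settle the build of these coordinates, which differ from those of GRCm38, the build from which the sequences below were read.

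The sequences shown are the first annotated exon of H2-Ea and the 250 bases before the starts of H2-Q2 and Hebp1, since the results turn on whether these genes give transcripts at all. The H2-Ea exon is the first of 4 in the GENCODE M21 model on GRCm38 (chr17:34344398-34344645, minus strand), a reference assembly of C57BL/6J. Of its 248 bases, 247 are annotated as coding, and these do not begin with the start codon ATG. C57BL/6 is among the strains with the deletion named above, so this exon need not be the first of an intact gene. The table of promoters held no entry for H2-Ea. The upstream stretches are credited to RefSeq on GRCm38.p6 (H2-Q2, chr17:35342057-35342306, plus strand; Hebp1, chr6:135168216-135168465, minus strand). Capitals mark matches, on either strand, to CCAAT (the CCAAT box), TATAAA (the TATA box), GGGCGG (the GC box) or CACGTG (an E box), and the exon was not searched.
H2-Ea first annotated exon: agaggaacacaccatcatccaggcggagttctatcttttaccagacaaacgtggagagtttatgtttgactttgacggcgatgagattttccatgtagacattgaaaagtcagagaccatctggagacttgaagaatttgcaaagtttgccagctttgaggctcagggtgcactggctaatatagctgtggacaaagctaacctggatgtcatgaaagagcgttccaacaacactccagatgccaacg
H2-Q2 upstream: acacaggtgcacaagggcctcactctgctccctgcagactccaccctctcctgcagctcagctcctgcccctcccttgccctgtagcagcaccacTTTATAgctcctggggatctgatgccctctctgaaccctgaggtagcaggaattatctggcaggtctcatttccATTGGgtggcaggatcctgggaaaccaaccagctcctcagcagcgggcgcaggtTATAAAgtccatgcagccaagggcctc
Hebp1 upstream: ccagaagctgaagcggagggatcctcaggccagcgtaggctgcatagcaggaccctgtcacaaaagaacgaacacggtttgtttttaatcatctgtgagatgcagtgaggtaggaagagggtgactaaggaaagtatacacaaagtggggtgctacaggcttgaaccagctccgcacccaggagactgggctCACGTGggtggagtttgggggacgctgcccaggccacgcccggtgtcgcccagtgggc

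The H2-Q2 stretch holds 1 match to CCAAT, beginning at base -81 from the start, and 2 matches to TATAAA, beginning at -155 and -27. The Hebp1 stretch holds neither of these letters and no GGGCGG, and has 1 match to CACGTG at -58. Over all 32851 RefSeq stretches of this length, CCAAT was found in 33.8%, TATAAA in 12.4%, GGGCGG in 32.7% and CACGTG in 6.02%. The stretches before H2-Q4, H2-Q10 and H2-D1, class I genes near H2-Q2, hold a TATAAA match at -28, -28 and -26. The 2 stretches listed for the class I gene H2-K1 hold 0. Such a match describes the letters of the reference and does not show that a factor binds there.

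Values are FPKM, fragments per kilobase of exon and scaled to the library's assigned fragments, and a level is compared between genes only on this per-length scale. Depth, recovered from the size of the smallest steps in each column, was 26543345 to 73732243 assigned reads a library. Differences are in log2(FPKM + 1), which understates changes of genes near 0, and a gene was called where its Benjamini-Hochberg adjusted p from limma was below 0.05 over the 14538 genes with at least 1 FPKM in at least 3 libraries. All 3 members passed that filter through the reporter-line libraries. All 16 cDC2 and dendritic cell markers were above 0 in every library, with summed levels of 8140 to 8740 FPKM in L.cDC2, 10000 to 11700 in M.cDC2, 7140 to 8830 in CLP.cDC2 and 11200 to 12100 in CDP.cDC2. Most of each sum was the class II gene H2-Ab1, at means of 7758, 9938, 7560 and 10820 FPKM in the same order. Of the 16 markers, 8 were called higher and 2 lower in L.cDC2 minus CLP.cDC2 (6.32% and 4.29% of all genes). In M.cDC2 minus CDP.cDC2, 0 were higher and 1 lower (0.956% and 1.62%). In CLP.cDC2 minus CDP.cDC2, 1 was higher and 10 were lower, beside 13.1% of all genes called. CDP.cDC2 replicate 3 stood apart on 1 principal component, PC2, and M.cDC2 replicate 3 on another, PC3.

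H2-Ea was the most abundant of the 3 in the reporter line and was close to undetected in the transferred cells. In L.cDC2 replicates 1 to 3 it was at 401.5, 409.9 and 444.7 FPKM, and in M.cDC2 at 494.1, 508.5 and 459.6 FPKM. In CLP.cDC2 it was at 0.5685, 0.804 and 0.9093 FPKM, and in CDP.cDC2 at 1.479, 0.6282 and 0.6625 FPKM. All 6 reporter-line libraries thus stood far above all 6 transferred ones, and within the transferred cells the groups overlapped. The group means were 418.7 ± 22.89 FPKM in L.cDC2, 487.4 ± 25.15 in M.cDC2, 0.7606 ± 0.1745 in CLP.cDC2 and 0.9232 ± 0.4816 in CDP.cDC2 (SD, n = 3). In reads, the transferred libraries held 20 to 56 for H2-Ea against 11272.5 to 33968.5 in the reporter line, so the transferred values were low but above a floor of 3 reads. In bulk RNA such a low level can be a small number of cells with the transcript or little of it per cell, which cannot be told apart.

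H2-Q2, a class I-like gene, had a lower level than H2-Ea in the reporter line, with the same order of systems. It was at 35.19, 30.02 and 35.5 FPKM in L.cDC2 and at 31.8, 36.74 and 37.96 FPKM in M.cDC2. The transferred libraries had 0.9104, 0.9924 and 0.9759 FPKM in CLP.cDC2 and 1.516, 1.671 and 1.196 FPKM in CDP.cDC2. The L.cDC2 and M.cDC2 libraries overlapped, whereas the CLP.cDC2 libraries all lay below the CDP.cDC2 ones. The means were 33.57 ± 3.082, 35.5 ± 3.261, 0.9596 ± 0.04338 and 1.461 ± 0.2424 FPKM in the L, M, CLP and CDP groups (SD, n = 3). The reads assigned to H2-Q2 came to 67.43 to 204.4 in the transferred libraries and 1737.67 to 5709.29 in the reporter line, and were never whole numbers, as when a read that matches several genes is counted in part for each.

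Hebp1, the haem-binding protein gene, had the lowest mean of the 3 in each group. It was at 13.68, 14.06 and 15.99 FPKM in L.cDC2 and at 13.53, 12.51 and 15.23 FPKM in M.cDC2. It was at 0.03174, 0.3839 and 0.1269 FPKM in CLP.cDC2 and at 0.4645, 0.2426 and 0.6407 FPKM in CDP.cDC2. The reporter-line groups overlapped each other, and so did the transferred groups. The means were 14.58 ± 1.242 and 13.76 ± 1.375 FPKM in L.cDC2 and M.cDC2, and 0.1809 ± 0.1822 and 0.4493 ± 0.1995 FPKM in CLP.cDC2 and CDP.cDC2 (SD, n = 3). CLP.cDC2 replicate 1 had 4 Hebp1 reads and CDP.cDC2 replicate 3 had 97, against 1384.5 to 4376.5 in the reporter line. The spread between replicates, as a share of the mean, was 5.16% to 9.99% for the 3 genes in the reporter line and 4.52% to 101% in the transferred cells, where few reads lie behind each value.

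**Figure D1:**
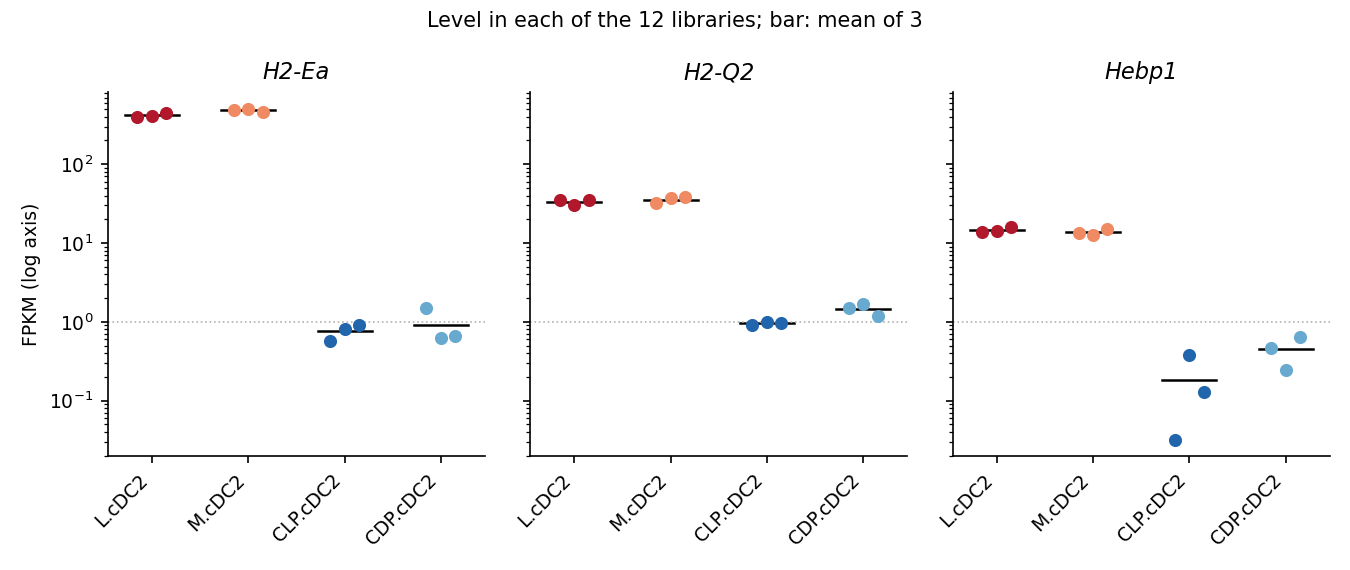
Level of each gene in each of the 12 libraries in FPKM on a log axis, with 1 point per library, the group mean as a bar and 1 FPKM as a dotted line. The reporter-line groups L.cDC2 and M.cDC2 lie at 401.5 to 508.5 FPKM for H2-Ea, 30.02 to 37.96 for H2-Q2 and 12.51 to 15.99 for Hebp1, and every transferred library lies at or below 1.671 FPKM.

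The size of the contrast that chose the genes is described next. Mean FPKM in L.cDC2 over that in CLP.cDC2 was 550.5 for H2-Ea, 34.99 for H2-Q2 and 80.6 for Hebp1. Mean FPKM in M.cDC2 over that in CDP.cDC2 was 527.9, 24.3 and 30.62 for the same genes. The lowest reporter-line library exceeded the highest transferred one 271.5-fold for H2-Ea, 17.96-fold for H2-Q2 and 19.53-fold for Hebp1. The order of Hebp1 and H2-Q2 depends on the scale: in log2(FPKM + 1) the L.cDC2 minus CLP.cDC2 difference was 7.90 for H2-Ea, 4.14 for H2-Q2 and 3.73 for Hebp1, and the M.cDC2 minus CDP.cDC2 difference 8.02, 3.89 and 3.35. On reads rather than FPKM + 1, with voom, the M.cDC2 minus CDP.cDC2 difference of Hebp1 was 5.07 and that of H2-Q2 was 4.60.

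Ranked by the gap in log2(FPKM + 1) between the lowest reporter-line and the highest transferred library, H2-Ea (7.34), H2-Q2 (3.54) and Hebp1 (3.04) were ranks 1, 2 and 3 of all genes. Just outside them stood Rps18-ps6 (2.46), a copy of a ribosomal protein gene on chromosome 13 listed as protein-coding, Rps18-ps4 (2.43), which overlaps it, the pseudogene Gm15772 (2.14) and Mmp9 (1.88), which encodes a matrix metalloproteinase. Every reporter-line library was above every transferred library for 270 genes in all, 219 of them among the genes tested (1.51%). The opposite order held for 296 genes, but the widest gap there was 0.86, for the histone gene H2bu2. Under a fixed on/off rule of at least 5 FPKM in all 6 libraries of a system and under 1 FPKM in all 6 of the other, only Mmp9 and Hebp1 passed, both high in the reporter line. H2-Ea missed it through CDP.cDC2 replicate 1, and H2-Q2 through all 3 CDP.cDC2 libraries, which were above 1 FPKM. Mmp9 was at 14.06 ± 2.034 FPKM in L.cDC2 and 6.43 ± 0.09986 in M.cDC2 (SD, n = 3), against 0.4599 ± 0.1914 in CLP.cDC2 and 0.8939 ± 0.1015 in CDP.cDC2. It was also called between L.cDC2 and M.cDC2, by 1.01 (limma adjusted p = 0.0024).

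**Figure D2:**
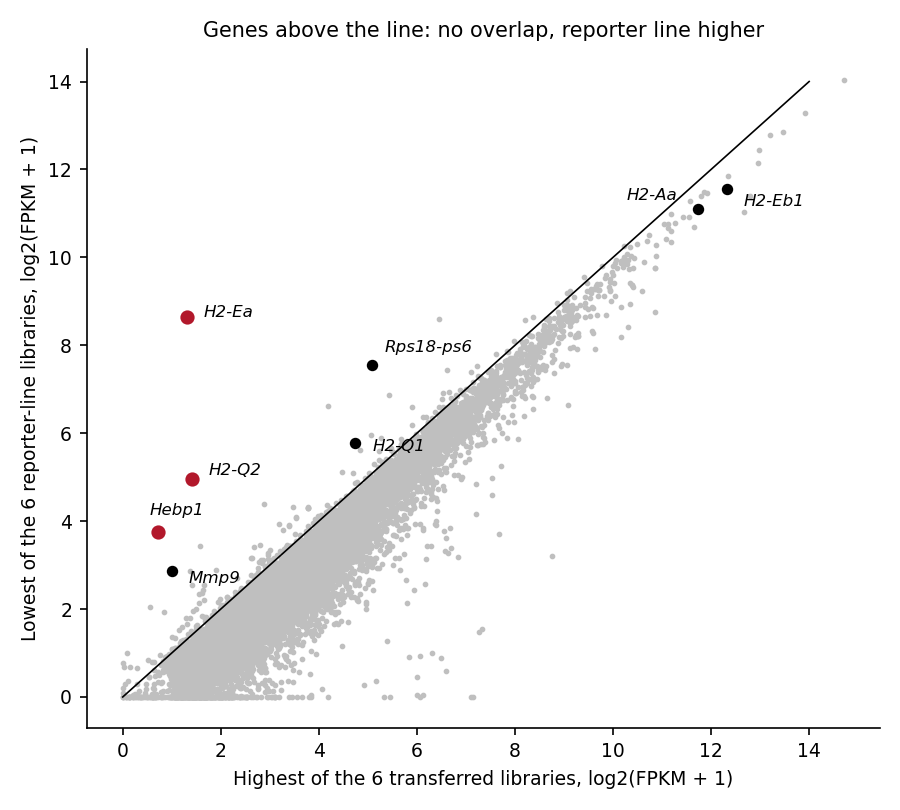
Lowest of the 6 reporter-line libraries against highest of the 6 transferred libraries for each of the 14538 genes tested, both in log2(FPKM + 1), with equality as a line. H2-Ea, H2-Q2 and Hebp1 (red) lie farthest above the line, by 7.34, 3.54 and 3.04, and H2-Aa and H2-Eb1 lie below it.

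As a description over the 12 libraries, the log2(FPKM + 1) profiles of the members followed each other with Pearson r of 0.997 for H2-Ea and H2-Q2, 0.995 for H2-Ea and Hebp1 and 0.995 for H2-Q2 and Hebp1. The points share libraries and depth, and these genes were chosen for the split between systems, which sets most of each r. Among protein-coding genes beside the members, Rps18-ps6 came closest to each of them, at r = 0.997, 0.994 and 0.986 for H2-Ea, H2-Q2 and Hebp1. The class I gene H2-Q1 followed, at 0.970, 0.981 and 0.972. Fam177a and its copy Fam177a2 came next, at 0.962, 0.969 and 0.966. Their contrasts were far smaller: Fam177a was at 8.733 ± 0.6469 FPKM in L.cDC2 and 4.021 ± 0.4509 in CLP.cDC2 (SD, n = 3).

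The choice of genes asked that both reporter-line groups be high and set no order between them, though it read the same values. Such a choice makes a large difference between these groups less likely, so the lack of a call is partly set by it. Between the tdTomato+ and tdTomato- cells, where 1.73% of genes were called, the L.cDC2 minus M.cDC2 difference of H2-Ea was -0.22 ± 0.16 (log2, SE, limma adjusted p = 0.743). The 3 L.cDC2 libraries all had less H2-Ea than the 3 M.cDC2 libraries, an order found for 6.67% of the genes tested. The difference was -0.08 ± 0.13 for H2-Q2 (limma adjusted p = 0.881) and 0.08 ± 0.16 for Hebp1 (limma adjusted p = 0.904). The 95% intervals ran from 0.68 to 1.09-fold for H2-Ea, 0.776 to 1.16-fold for H2-Q2 and 0.826 to 1.35-fold for Hebp1 on the FPKM + 1 scale. Differences beyond those bounds are outside the intervals, while smaller ones were not detectable with 3 libraries a group.

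Markers of other cell types differed between L.cDC2 and M.cDC2. Summed B and plasma cell markers, 11 of 14 above 0 in all libraries, were at 1630 to 2380 FPKM in L.cDC2, 436 to 460 in M.cDC2, 458 to 1050 in CLP.cDC2 and 382 to 443 in CDP.cDC2. Summed NK cell markers, 3 of 10 above 0 in all libraries, were at 252 to 339, 36.1 to 42.3, 27.4 to 32.6 and 30.4 to 38.5 FPKM in the same order, with Prf1 at 0 in CDP.cDC2. T cell markers, 6 of 10 above 0 throughout, summed to 44.5 to 59.8, 7.73 to 10, 15.2 to 25.5 and 10 to 13.3 FPKM, with Cd3e at 0 in M.cDC2. These 3 lists were highest in L.cDC2. Markers of cDC1, the other class of conventional dendritic cells, summed to 168 to 190, 277 to 297, 243 to 298 and 184 to 226 FPKM, with 11 of 11 above 0 throughout. Macrophage and monocyte markers, 10 of 13 above 0 throughout, summed to 605 to 663, 858 to 951, 436 to 583 and 1040 to 1240 FPKM. For plasmacytoid dendritic cells, neutrophils and erythroid cells, 9 of 10, 1 of 8 and 4 of 8 markers were above 0 throughout. The plasmacytoid sums were 136 to 147, 115 to 122, 160 to 302 and 85.7 to 143 FPKM. The neutrophil sums were 0.76 to 47.6, 2.16 to 17.3, 3.48 to 4.53 and 4.27 to 9.71 FPKM. The erythroid sums were 36.6 to 504, 46.1 to 61.1, 53.9 to 496 and 26.8 to 137 FPKM. The part of these cells in the values of H2-Ea, H2-Q2 and Hebp1 was not tested.

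The transferred values were required to be near 0 by the choice of the genes, so the comparison of CLP.cDC2 with CDP.cDC2 is given for the members as a description, with no test. Over all genes 13.1% were called in it, from which nothing is read about the members. The CLP.cDC2 minus CDP.cDC2 difference in log2(FPKM + 1) was -0.10 ± 0.16 for H2-Ea, -0.32 ± 0.13 for H2-Q2 and -0.30 ± 0.16 for Hebp1 (SE). Mean FPKM in CLP.cDC2 over that in CDP.cDC2 was 0.8238, 0.6569 and 0.4026 for the same genes, so the log2 scale understates Hebp1 most. All 3 CLP.cDC2 libraries were below all 3 CDP.cDC2 libraries for H2-Q2, an order found for 13.0% of the genes tested. The difference of H2-Ea turned to 0.09 without CDP.cDC2 replicate 1, whose H2-Ea value was the highest of the transferred cells.

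The difference between the lineage differences of the systems contains the same transferred term and is likewise a description, beside 5.99% of all genes called in it. The L.cDC2 minus M.cDC2 difference less the CLP.cDC2 minus CDP.cDC2 difference was -0.11 ± 0.22 for H2-Ea, 0.25 ± 0.19 for H2-Q2 and 0.38 ± 0.23 for Hebp1 (log2, SE).

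**Figure D3:**
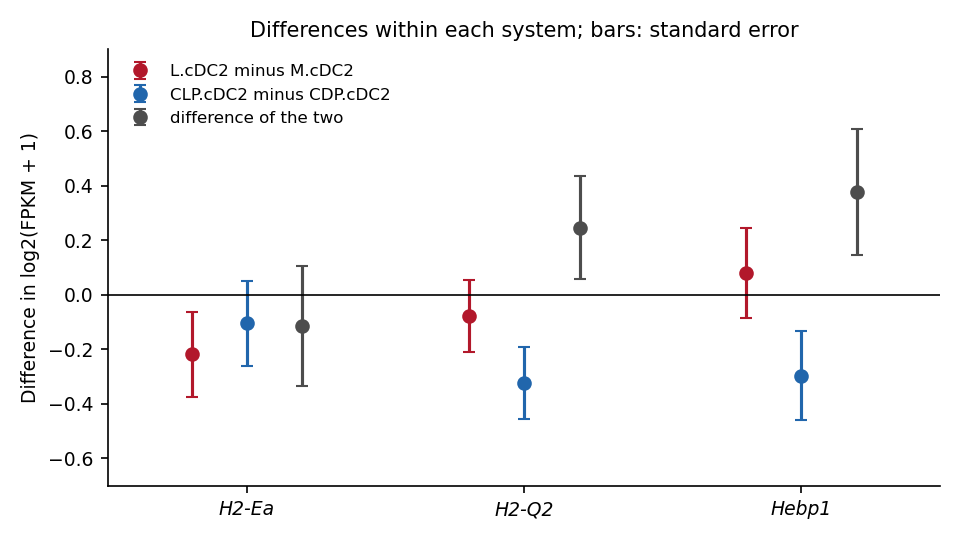
Difference in log2(FPKM + 1) within the reporter line (L.cDC2 minus M.cDC2), within the transferred cells (CLP.cDC2 minus CDP.cDC2) and between these differences, for each gene, with standard errors. All 9 values lie between -0.32 and 0.38 on this scale. Those that contain the transferred cells were held near 0 by the choice of genes and by the added 1 FPKM.

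The other class II chain genes did not share the split of H2-Ea. H2-Eb1, the beta chain gene of I-E 36.09 kb away, was at 3189 ± 170.4 FPKM in L.cDC2, 4178 ± 499.6 in M.cDC2, 2937 ± 334.6 in CLP.cDC2 and 4518 ± 794.4 in CDP.cDC2 (SD, n = 3). H2-Ea stood at 13.1% ± 0.573 of the H2-Eb1 level in L.cDC2 and 11.8% ± 1.87 in M.cDC2, but at 0.0257% ± 0.00416 in CLP.cDC2 and 0.0204% ± 0.00947 in CDP.cDC2 (SD, n = 3). H2-Aa, the alpha chain gene of the other class II molecule I-A, was at 31.3% ± 2.0 of its partner H2-Ab1 in L.cDC2, 31% ± 2.74 in M.cDC2, 29.8% ± 2.49 in CLP.cDC2 and 27.8% ± 2.65 in CDP.cDC2. The I-A pair thus kept a near-constant ratio in all 4 groups, where the I-E pair did not.

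In L.cDC2 minus CLP.cDC2, where 10.6% of genes were called, the difference was 0.12 for H2-Eb1 (limma adjusted p = 0.635), 0.12 for H2-Aa (0.611) and 0.04 for H2-Ab1 (0.853). Of 14 genes of class II and its assembly, 4 were higher in L.cDC2 and 0 lower, beside 6.32% and 4.29% of all genes: H2-Ob, a subunit of the peptide-loading regulator H2-O, Cd74, the invariant chain, Rfxap, a factor that drives class II genes, and H2-Eb2. Their differences were 0.53, 0.61, 0.97 and 0.95. In M.cDC2 minus CDP.cDC2, where 2.58% of genes were called, 0 of the 14 were called in limma, H2-Eb1 at -0.10 (adjusted p = 0.744), H2-Aa at 0.03 (0.923) and H2-Ab1 at -0.13 (0.573). With array weights 4 of them were called. The median difference of the list was 0.18 in the first comparison and -0.13 in the second, beside 0.00 and -0.02 over all genes tested. Leaving out L.cDC2 replicate 1 or 2, or CLP.cDC2 replicate 1 or 2, brought the 4 down to 1. Rfxap lost its call in 12 of 25 alternatives, 9 of them with 1 library left out, any but CDP.cDC2 replicates 1 and 3 and CLP.cDC2 replicate 3 (highest adjusted p = 0.16). H2-Ob and H2-Eb2 lost theirs in 4 each (highest 0.0803 and 0.0553) and Cd74 in 2, those without L.cDC2 replicate 2 and with no filter.

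H2-Q2 had neighbours that moved with it, to a smaller degree. H2-Q1, 21.84 kb before it, was at 56.94 ± 4.467 FPKM in L.cDC2 and 64.95 ± 10.12 in M.cDC2, against 16.74 ± 2.155 in CLP.cDC2 and 21.51 ± 4.203 in CDP.cDC2 (SD, n = 3). H2-Q4, 37.38 kb after it, was at 21.42 ± 1.194 and 21.94 ± 3.522 FPKM against 5.452 ± 0.4749 and 9.03 ± 1.43. Neither overlapped between systems. The L.cDC2 minus CLP.cDC2 and M.cDC2 minus CDP.cDC2 differences were 1.71 and 1.56 for H2-Q1 (limma adjusted p = 3.17e-05 and 0.000383) and 1.80 and 1.19 for H2-Q4 (limma adjusted p = 1.02e-05 and 0.00165). H2-Q2 stood at 59.1% ± 5.26 and 55.1% ± 5.52 of the H2-Q1 level in L.cDC2 and M.cDC2, and at 5.77% ± 0.508 and 6.82% ± 0.326 in CLP.cDC2 and CDP.cDC2 (SD, n = 3).

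The classical class I genes did not follow H2-Q2 in both comparisons. H2-D1, 79.51 kb before H2-Q2, was at 1397 ± 88.76 FPKM in L.cDC2 and 1651 ± 129.6 in CLP.cDC2 (SD, n = 3) and was called in neither comparison (limma adjusted p = 0.2 and 0.0872). H2-K1 was higher in L.cDC2 than in CLP.cDC2 by 0.57 (limma adjusted p = 0.00566) and stood at 0.28 in M.cDC2 minus CDP.cDC2 (adjusted p = 0.168). H2-Q6 and H2-Q7, on the far side of H2-Q4, fell in M.cDC2 relative to CDP.cDC2, by 0.60 and 0.59 (limma adjusted p = 0.0114 and 0.0265). The call of H2-Q7 was lost in 7 of 25 alternatives, among them those that left out the first or second library of M.cDC2 or of CDP.cDC2 (highest adjusted p = 0.138), and that of H2-Q6 in 3, among them those without M.cDC2 replicate 1 or 2 (highest 0.104). H2-Q6 had a difference of 0.14 and H2-Q7 of -0.22 in L.cDC2 minus CLP.cDC2, neither called (adjusted p = 0.414 and 0.255). H2-Q5, between H2-Q4 and H2-Q6, was at -0.50 in M.cDC2 minus CDP.cDC2 (limma adjusted p = 0.044), a call kept in 9 of 24 alternatives (highest 0.157). It was at 0.39 in L.cDC2 minus CLP.cDC2 (adjusted p = 0.0518). Every transferred library had more H2-Q7 than every reporter-line one (49.23 FPKM or more against 47.99 or less), an order found for 1.8% of the genes tested. So within the Qa run, H2-Q1, H2-Q2 and H2-Q4 were high in the reporter line, and H2-Q5, H2-Q6 and H2-Q7 were called higher in neither comparison.

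Of the 22 class I genes listed, which left H2-Q2 out, 17 were tested. In L.cDC2 minus CLP.cDC2, 8 were higher and 0 lower (6.32% and 4.29% of all genes), and in M.cDC2 minus CDP.cDC2, 5 were higher and 3 lower (0.956% and 1.62% of all genes), with list medians of 0.39 and 0.14. The 5 genes higher in both were H2-Q1, H2-Q4, H2-Q10, H2-Bl and H2-M2, where 0.523% of all genes tested were higher in both. H2-Q10, which encodes a secreted class I protein, was at 5.434 ± 0.5696 and 6.052 ± 1.141 FPKM in L.cDC2 and M.cDC2 against 0.9918 ± 0.1774 and 1.817 ± 0.4373 in CLP.cDC2 and CDP.cDC2 (SD, n = 3). H2-M2 was at 13.24 ± 3.041 and 12.03 ± 2.122 FPKM against 0.192 ± 0.2868 and 3.993 ± 1.526, the widest of the 5 in L.cDC2 minus CLP.cDC2, at 3.58. H2-Q1 and H2-Q4 were higher in both comparisons in all 26 settings run, H2-Q10 in 25, H2-Bl in 23 and H2-M2 in 21. H2-M2 was not called in M.cDC2 minus CDP.cDC2 without M.cDC2 replicate 1 or 2. Fitting only the groups compared left 2 of the 5, and dropping the filter on low values left 3.

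**Figure D4:**
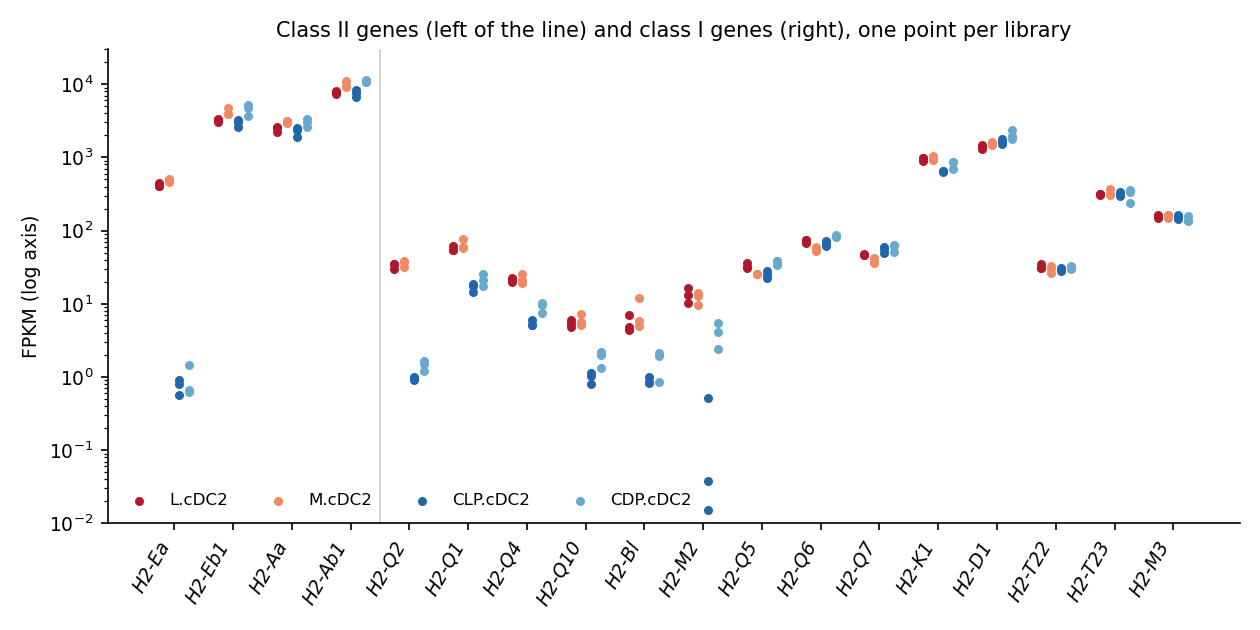
FPKM on a log axis of 18 MHC genes, 1 point per library, coloured by group, class II to the left of the line and class I to the right. H2-Ea and H2-Q2 have the widest gaps between the lowest reporter-line and the highest transferred library, H2-Q1, H2-Q4, H2-Q10, H2-Bl and H2-M2 have smaller ones, and H2-Eb1, H2-Aa, H2-T22, H2-T23 and H2-M3 none visible on this scale.

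Reads shared between these genes bear on their levels. Of the 987 stretches of 50 bases in the GENCODE M21 transcript of H2-Ea, 0 occur in a transcript of another gene on either strand. For H2-Q2, 343 of 2132 (16.1%) occur in transcripts of other genes, 274 of them in H2-Q1, so part of its count can be shared with H2-Q1. For Hebp1, 11 of 3682 (0.299%) occur elsewhere. Read counts were whole, within 0.4 of a step of 0.01 read, in 6 of 12 libraries for H2-Ea, 5 for Hebp1 and 0 for H2-Q2, H2-Q1, H2-Q4 and H2-Q10. A read from an allele that differs from the reference can also be lost or placed on a copy, which the gene-level table cannot show.

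Genes higher in the reporter line in both comparisons lay around H2-Ea and H2-Q2 on chromosome 17 at a larger share than over all genes tested. In limma fits, within 5 Mb of H2-Ea, 21 of 241 other genes tested (8.71%) were higher in the reporter line in both comparisons and 0 were lower, beside 0.523% higher and 0.206% lower over all genes tested. Within 1 Mb of H2-Q2 the count was 14 of 115 (12.2%), and within 0.5 Mb of H2-Ea it was 1 of 61 (1.64%). Within 10 Mb of H2-Ea the count was again 21, of 391 genes, and 2 were lower, Lemd2 and Mapk13, named after their values were seen. Chromosome 17 as a whole, the members included, had 23 of 794 genes higher in both (2.90%), and chromosome 11 came next with 11 of 1184 (0.929%). Neighbouring genes are not independent, and Qa genes share reads, so these shares are a description. Of the 21, 13 were still called without M.cDC2 replicate 2, 13 without the third replicates of both M.cDC2 and CDP.cDC2, 10 among protein-coding genes alone and 7 when only the groups compared were fitted.

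Of the 21, 5 were class I genes of the fixed list. Others belong to the class I family or lie among its genes: H2-K2, H2-Q3 and H2-T-ps are class I genes or pseudogenes by name, Gm11131 overlaps H2-Q4, and Gm7030, Gm8909 and Gm10499 are predicted genes near H2-Bl. H2-K2 was at 88.81 ± 3.657 and 88.27 ± 7.512 FPKM in L.cDC2 and M.cDC2 against 39.59 ± 2.077 and 62.45 ± 5.772 in CLP.cDC2 and CDP.cDC2 (SD, n = 3). The genes of this paragraph that are on no list, Msh5, Sapcd1 and Fgd2 among them, were named after their values were seen. Msh5, a meiotic DNA repair gene, was higher by 1.5 and 1.316 in the 2 comparisons (limma adjusted p = 0.000576 and 0.00642), and its neighbour Sapcd1 by 1.157 and 1.004 (0.00532 and 0.0329). In M.cDC2 minus CDP.cDC2, H2-K2 lost its call in 14 of 24 alternatives (highest adjusted p = 0.172), 8 of them with 1 L.cDC2 or M.cDC2 library or CDP.cDC2 replicate 1 or 3 left out. Sapcd1 lost it in 10 (highest 0.13), 6 of them with 1 CDP.cDC2 library, M.cDC2 replicate 1 or 2 or L.cDC2 replicate 3 left out. Glo1, the glyoxalase gene 3.757 Mb before H2-Ea, is known to vary in copy number between mouse strains and rose by 0.65 and 0.98 (limma adjusted p = 0.017 and 0.00642). It lost its call in 6 of 26 settings, among them each that left out 1 L.cDC2 replicate. Fgd2, at the edge of the window, was higher by 0.53 and 0.63 (limma adjusted p = 0.0088 and 0.0114), the second lost without M.cDC2 replicate 2 (adjusted p = 0.0637). Of 28 tested genes of a fixed list of other MHC-region genes, which has transporters, complement and cytokine genes, 0 were higher or lower in both comparisons: 4 were higher and 2 lower in L.cDC2 minus CLP.cDC2 (6.32% and 4.29% of all genes) and 1 was higher and 0 lower in M.cDC2 minus CDP.cDC2 (0.956% and 1.62%), by the limma test. Among the genes beside H2-Ea, Gpsm3 and Pbx2 fell in M.cDC2 relative to CDP.cDC2 by 0.87 and 0.84 (limma adjusted p = 0.0292 and 0.0176) and were not called in L.cDC2 minus CLP.cDC2. Gpsm3 lost its call in 9 of 25 alternatives (highest adjusted p = 0.129) and Pbx2 in 7 (highest 0.122), in both without each M.cDC2 replicate or CDP.cDC2 replicate 3, and for Gpsm3 also without CDP.cDC2 replicate 1.

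**Figure D5:**
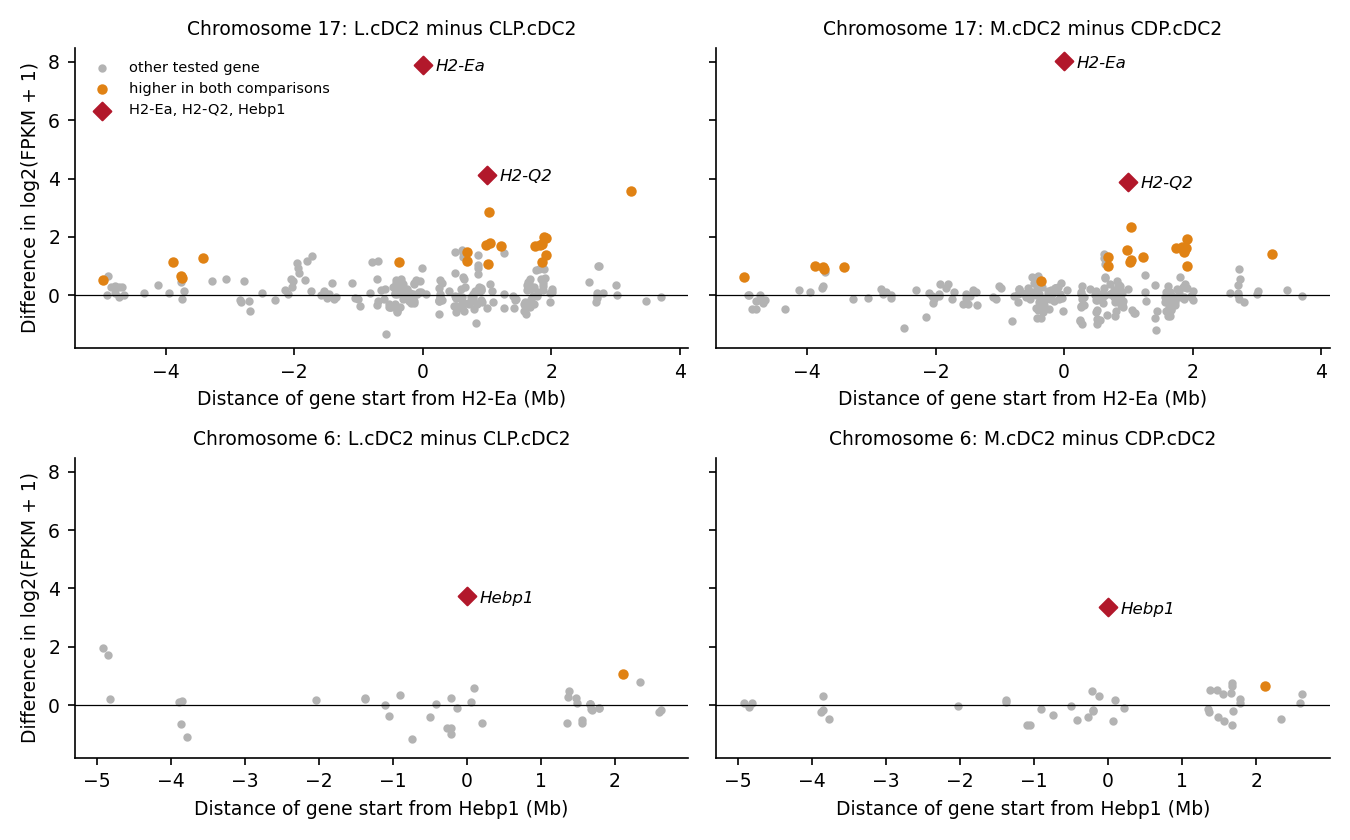
Difference in log2(FPKM + 1) between reporter-line and transferred cells against the distance of each tested gene from H2-Ea (top) or Hebp1 (bottom), within 5 Mb, for both comparisons. Orange points, 21 around H2-Ea and 1 around Hebp1, were higher in the reporter line in both comparisons, and diamonds are the members.

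Few tested genes lay around Hebp1. Within 1 Mb of it 0 of 12 other genes tested were higher or lower in both comparisons by limma. Over all genes tested 0.523% were higher and 0.206% lower, so with so few genes a count of 0 cannot be told apart from those shares. Within 5 Mb 1 of 42 (2.38%) was higher in both: Ptpro, a receptor tyrosine phosphatase gene. Ptpro was at 15.79 ± 0.7589 and 21.13 ± 1.553 FPKM in L.cDC2 and M.cDC2 against 6.977 ± 0.5775 and 13.1 ± 2.332 in CLP.cDC2 and CDP.cDC2 (SD, n = 3). Its M.cDC2 minus CDP.cDC2 call was lost in 9 of 25 alternatives (highest adjusted p = 0.151), among them those without each M.cDC2 replicate or CDP.cDC2 replicate 1 or 3. Of its 6 nearest named neighbours, Gpr19 was lower in L.cDC2 than in CLP.cDC2 (-0.79, limma adjusted p = 0.0291; not called without CLP.cDC2 replicate 2 or 3 or L.cDC2 replicate 1 or 2, highest 0.142), and Cdkn1b, Ddx47, Fam234b, Gsg1 and Atf7ip were called in neither comparison. Fam234b, which starts within the span of Hebp1 on the other strand, was at 16.24 ± 5.864, 12.16 ± 2.234, 14.35 ± 1.167 and 17.91 ± 1.076 FPKM in the L, M, CLP and CDP groups. Gm22881 and Gm34391, also within the span, were listed at 0 in every library, and Gm19434 was at a mean of at most 0.4531 FPKM in any group. The sources used here do not say whether counting used strand.

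Of 24 listed genes of haem binding and haem metabolism, 18 were tested, and 0 were called by limma in both comparisons. In L.cDC2 minus CLP.cDC2, Flvcr1, a haem exporter, was higher by 0.92 (limma adjusted p = 0.0235) and Urod, an enzyme of haem synthesis, was lower, at -0.45 (limma adjusted p = 0.0388). Urod lost its call in 13 of 25 alternatives, 8 of them with 1 library left out, which were all of L.cDC2, the first and second of M.cDC2, replicates 2 and 3 of CLP.cDC2 and the second of CDP.cDC2 (highest adjusted p = 0.145), and Flvcr1 in 6, 5 of them with an L.cDC2 replicate or CLP.cDC2 replicate 1 or 2 left out (highest 0.115). In M.cDC2 minus CDP.cDC2, 0 of the 18 were called by limma, and the list medians were 0.12 and 0.00. Hmox1, which breaks haem down, was at 6.599 ± 1.9, 6.812 ± 2.381, 8.431 ± 9.26 and 11.15 ± 2.889 FPKM in the L, M, CLP and CDP groups (SD, n = 3). Hebp2, the paralog of Hebp1, had a mean of at most 0.08826 FPKM in any group and did not pass the filter. Of the 3 formyl peptide receptor genes only Fpr2 was tested, at 0.2424 ± 0.2599, 0.5182 ± 0.3383, 0.3027 ± 0.4854 and 2.207 ± 1.359 FPKM in the same order, and it was called in neither comparison between systems.

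The loci of the reporter alleles were also read. Hebp1 lies 22.07 Mb from Gt(ROSA)26Sor on chromosome 6, the site of the tdTomato cassette. Gt(ROSA)26Sor itself was at 8.453 ± 1.839, 10.69 ± 2.076, 12.78 ± 1.51 and 8.202 ± 1.518 FPKM in the L, M, CLP and CDP groups (SD, n = 3), with differences between systems of -0.56 and 0.34 (limma adjusted p = 0.0786 and 0.333). Il7r, on chromosome 15, was at 2.388 ± 0.5892, 0.9502 ± 0.2084, 2.812 ± 0.4084 and 0.9096 ± 0.2393 FPKM, higher in CLP.cDC2 than in CDP.cDC2 (limma adjusted p = 0.00347) and in L.cDC2 than in M.cDC2 (adjusted p = 0.0394, lost in 15 of 24 alternatives, 9 of them with 1 library left out, any but CDP.cDC2 replicates 1 and 3 and CLP.cDC2 replicate 2, highest 0.323), and not called between systems (limma adjusted p = 0.559 and 0.944). Of 11 genes listed because they are known to differ between laboratory strains, 7 were tested, and Glo1 alone was higher in both comparisons. Nnt, listed under 2 gene models, was higher in L.cDC2 than in CLP.cDC2 in 1 of them, by 0.75 (limma adjusted p = 0.0267), lost in 7 of 24 alternatives, 5 of them with CLP.cDC2 replicate 1, 2 or 3 or L.cDC2 replicate 2 or 3 left out (highest 0.135). Whether the reporter line carries MHC alleles of another strain was not tested, since the table holds no alleles.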

How the data were processed

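RNA of the cells was amplified with SMART-Seq HT and sequenced from Nextera XT libraries, per the labels' protocols. The deposited table holds FPKM per gene and library, calculated by the authors; the submitters' processing notes name STAR 2.7.9a, DESeq2 1.20.0, featureCounts 2.0.1, cutadapt 3.7, Trim Galore 0.6.7, Trimmomatic 0.39, GRCm38 and GRCh38, with no order or role. FPKM times exonic length summed to the same total in each library, and values were whole multiples of 0.01 read. Depth and reads were recovered from these properties. The floor of 3 reads covers counting error only. The intervals given for L.cDC2 minus M.cDC2 rest on the limma standard errors, and so on the spread among libraries. Tests used limma 3.58.1 in R 4.3.3 (eBayes with trend, two-sided, Benjamini-Hochberg over all genes tested) on log2(FPKM + 1) of genes with at least 1 FPKM in at least 3 libraries, with 4 group means over 12 libraries and 8 residual degrees of freedom. Tables and figures were made with Python 3.11.15, pandas 2.3.3, numpy 2.4.6 and matplotlib 3.10.9. The fit was tested on simulated data. The planned tests of the members in CLP.cDC2 minus CDP.cDC2 and in the interaction are given as descriptions, since the choice of genes held those values near 0.

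The members and the gene lists were chosen with earlier results of these data known. Besides the members, the genes named were, by rule, the 5 protein-coding genes with the highest r to each member, protein-coding genes with the on/off pattern, the 3 nearest tested protein-coding genes on each side, up to 8 of each list with called genes first, and H2-Aa, H2-Ab1, H2-Eb1, Hebp2, Il7r and Gt(ROSA)26Sor. Chosen for their values were the next genes in the gap ranking, H2bu2, H2-K2, Msh5, Sapcd1, Fgd2, Ptpro, Gm15772, Rpl26 and Glo1-ps. Alternatives changed the pseudocount, filter, scaling, samples, weights, trend, replicate block, gene set and count model (voom). Leaving out the third replicates of both M.cDC2 and CDP.cDC2 was added after seeing the data.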

Additional observations from a re-analysis of the deposited data

Results flagged for a closer look

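For 10 named genes the lineage difference in the reporter line differed from that in the transferred cells, by the limma interaction test, where 5.99% of all genes were called. Many of the genes were named because they were called in another comparison, so nothing is read from the count of 10 beside that share. The values are (L.cDC2 minus M.cDC2) minus (CLP.cDC2 minus CDP.cDC2) in log2(FPKM + 1), with the adjusted p from limma, and each call is followed by how many of its alternatives lost it. Mmp9 had a value of 1.39 (adjusted p = 0.00415), with 3.37 in L.cDC2 minus CLP.cDC2 and 1.97 in M.cDC2 minus CDP.cDC2, lost in 0 of 24. H2-M2 had 2.16 (adjusted p = 0.00613), from 3.58 and 1.42 in the same comparisons, lost in 0 of 24. Among Qa genes, H2-Q5 had 0.89 (adjusted p = 0.0112), from 0.39 and -0.50, lost in 0 of 23, and H2-Q6 had 0.74 (adjusted p = 0.0145), from 0.14 and -0.60, lost without L.cDC2 replicate 2 (adjusted p = 0.0546). H2-Eb2, beside H2-Ea, had 1.49 (adjusted p = 0.0151), from 0.95 and -0.55, lost in 2 of 24 (highest adjusted p = 0.0657), and Gpsm3, on the other side, had 1.11 (adjusted p = 0.0269), from 0.24 and -0.87, lost in 9 of 24 (highest 0.102), among them those without each M.cDC2 replicate, L.cDC2 replicate 2 or 3 or CLP.cDC2 replicate 2. Cd74 had 0.74 (adjusted p = 0.0312), from 0.61 and -0.13, lost in 10 of 24 (highest 0.188), among them those without each L.cDC2 replicate, the first or second library of M.cDC2 or of CLP.cDC2, and with median-of-ratios scaling. Aif1, in the MHC region, had -1.45 (adjusted p = 0.0211), from -0.96 and 0.49, lost in 5 of 24 (highest 0.0973), among them those without CLP.cDC2 replicate 1 or 2, L.cDC2 replicate 2 or M.cDC2 replicate 3. Of the haem genes, Urod had -0.79 (adjusted p = 0.0234), from -0.45 and 0.34, lost in 9 of 24 (highest 0.0753), among them those without each L.cDC2 replicate, M.cDC2 replicate 1 or 3 or CLP.cDC2 replicate 2. Flvcr1 had 1.2 (adjusted p = 0.0482), from 0.92 and -0.27, lost in 17 of 24 (highest 0.163), among them all but 2 of those that left out 1 library, M.cDC2 replicate 1 and CDP.cDC2 replicate 1.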

How the results depend on the processing

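Under all alternatives run, H2-Ea, H2-Q2 and Hebp1 were uncalled in L.cDC2 minus M.cDC2 (limma adjusted p from 0.199 to 0.985, 0.728 to 0.998 and 0.4 to 1.0). The choice of genes high in both groups made a large difference there less likely. The cause of the changes below was not tested. The described difference of H2-Q2 in CLP.cDC2 minus CDP.cDC2 was -0.41 with array weights and -0.547 with a pseudocount of 0.1 FPKM. H2-Ea in that comparison was 0.004 after quantile normalization and -0.21 to 0.093 when 1 library was left out. Hebp1 moved most there, from -1.657 to -0.073 over all alternatives. Its difference between the lineage differences of the systems ran from 0.135 to 1.759. With a pseudocount of 0.1 FPKM, of 5 FPKM and with voom, L.cDC2 minus CLP.cDC2 was 8.947, 6.2 and 9.096 for H2-Ea, 4.987, 2.691 and 5.13 for H2-Q2 and 5.909, 1.917 and 6.832 for Hebp1. M.cDC2 minus CDP.cDC2 was 8.991, 6.379 and 9.18 for H2-Ea (7.909 to 8.212 with 1 library left out), 4.52, 2.646 and 4.602 for H2-Q2 and 4.722, 1.782 and 5.073 for Hebp1. Uncalled differences near 0 changed sign: after quantile normalization H2-D1 (L.cDC2 minus CLP.cDC2) was 0.049 and H2-Ab1 0.0 in both comparisons, and in M.cDC2 minus CDP.cDC2 H2-Eb1 was 0.05 and H2-Aa -0.011. With array weights H2-Aa was -0.068 and Il7r -0.065 there, and without the third replicates of both M.cDC2 and CDP.cDC2 -0.08 and -0.143. With 1 library left out, H2-Aa ran from -0.067 to 0.118 and Il7r from -0.057 to 0.124 there, and H2-Ab1 in L.cDC2 minus CLP.cDC2 from -0.04 to 0.119.

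Counts of called genes moved more. L.cDC2 minus M.cDC2 had 252, 137 with a filter of 5 FPKM, 838 with array weights and 96 to 289 with 1 library left out. CLP.cDC2 minus CDP.cDC2 had 1910, 1067 with no filter, 687 with only the groups compared and 978 to 1974 with 1 left out. The difference between systems had 871, 2044 with array weights, 255 with no filter, 460 without both libraries and 190 to 1240. L.cDC2 minus CLP.cDC2 had 1542, 2480 with array weights, 947 with no filter, 2674 without both and 503 to 2345. M.cDC2 minus CDP.cDC2 had 375, 2022 with array weights, 103 with no filter, 47 with only its groups, 616 for protein-coding genes, 665 with voom, 99 without both and 74 to 586. Genes higher in both numbered 76, 192 with array weights, 43 with no filter, 28 with only the groups compared, 47 without both and 40 to 80. Genes lower in both numbered 30, then 137, 3, 1 and 14 in the same order, 17 with median-of-ratios scaling and 6 to 35. Class I genes higher in both fell from 5 to 3 with no filter and 2 with only the groups compared, and those called in M.cDC2 minus CDP.cDC2 from 8 to 4 and 2 (4 to 8 with 1 left out). Class II genes called in L.cDC2 minus CLP.cDC2 were 1 with no filter and 1 to 4 with 1 left out, and in M.cDC2 minus CDP.cDC2 4 with array weights. Genes within 5 Mb of H2-Ea higher in both were 7 with only the groups compared, 10 for protein-coding genes, 13 without both and 13 to 21. The on/off count of 2 was 1 at 2 and 0.5 FPKM, 1 at 10 and 1 FPKM and 2 to 4 with 1 left out. The share of calls that were higher was 74.6% in L.cDC2 minus M.cDC2 (64.4% after quantile normalization), 60.3% in the difference between systems (48.9% with median-of-ratios scaling) and 37.1% in M.cDC2 minus CDP.cDC2 (49.6% and 53.8%).

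Deviations of same-numbered libraries from their group means correlated from -0.435 to 0.282 over the pairs of groups compared. Between L.cDC2 and M.cDC2 these values were 0.128, -0.224 and -0.076, and differently numbered libraries had -0.192 to 0.228. With so few libraries a group this cannot decide whether the replicate numbers pair the samples. With the replicate block 477 genes were called in the difference between systems and 186 in M.cDC2 minus CDP.cDC2, and no member was called in L.cDC2 minus M.cDC2 with it. With 3 libraries a group and 4 to 97 Hebp1 reads in transferred libraries, small differences there could not be detected.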

Other observations

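Among genes with wide gaps between the systems were copies of other genes. Rps18-ps6 was at 199.9 ± 13.05 and 216 ± 7.115 FPKM in L.cDC2 and M.cDC2 against 29.86 ± 2.896 and 28.32 ± 4.754 in CLP.cDC2 and CDP.cDC2 (SD, n = 3), while its parent Rps18, 0.39 Mb from H2-Ea, was at 408 ± 31.83, 437 ± 17.19, 553.8 ± 19.34 and 422.9 ± 42.12 FPKM. Of the 512 stretches of 50 bases in Rps18-ps6, 494 (96.5%) occur in transcripts of other genes, 290 of them in Rps18. Gm15772 was at 436.9 ± 44.55 and 484.4 ± 45.86 FPKM against 65.34 ± 2.035 and 74.72 ± 15.47, while its parent Rpl26, a ribosomal protein gene on chromosome 11, was at 149.7 ± 11.6 and 167.3 ± 20.84 FPKM against 301.8 ± 25.65 and 283.1 ± 22.86. Of 389 stretches in Gm15772, 356 (91.5%) occur in transcripts of other genes, 289 of them in Rpl26. Glo1-ps, on chromosome 2, was at 25.2 ± 1.508 and 21.26 ± 1.245 FPKM against 5.679 ± 0.8302 and 3.652 ± 1.157, the same direction as Glo1, with which 397 of its 506 stretches are shared. How reads were divided among genes that share stretches was not tested.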
